A study of Mus musculus with 15 samples.

Results

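Open chromatin was compared between irradiated and untreated mouse fibroblasts at promoter windows and at all peaks of the assay, which include peaks at promoters. The comparison used 5 of the 15 samples of the series: FAIRE-seq libraries of 2 untreated and 2 irradiated samples, and 1 input DNA sample from untreated cells. All were NIH3T3 cells, an established mouse fibroblast line. Irradiated cells were washed, irradiated with UV-C (254 nm, 80 J/m2), given fresh medium with DMSO at 1:2000 and kept for 6 h. The labels give the untreated cells no treatment and do not say whether they were washed, re-fed or given DMSO, so light, medium change and DMSO cannot be told apart. The reads were counted over 21881 promoter windows of 1000 bp, 1 per gene symbol, and over 56970 peaks, of which 11 lay on mitochondrial DNA and were kept apart from the other 56959. The irradiated column is headed DMSO and was assigned to the UV samples from the protocol. Each column pools its 2 samples, so the spread between FAIRE replicates cannot be seen and no FAIRE difference was tested. The same holds for pooled H3K27ac ChIP-seq columns (acetylated lysine 27 of histone H3, a mark of active promoters and enhancers; 2 samples a condition), while RNA-seq was deposited for 3 libraries of each condition. All 12 fibroblast markers had at least 1 CPM of RNA (counts scaled to library size) in untreated cells, with sums of 20880 to 25640 CPM, against sums of at most 10.8 CPM for the marker lists of 6 other cell types.

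FAIRE recovers DNA that formaldehyde crosslinks poorly to protein, so fragments from nucleosome-depleted promoters and enhancers are enriched over input DNA. UV-C light joins neighbouring pyrimidines into lesions that block RNA polymerases and must be excised. Damaged cells respond through stress kinases that drive the AP-1 factors (Fos and Jun proteins) and through the tumour suppressor p53, and both act at promoters and enhancers. Mitochondrial DNA carries no nucleosomes.

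Among the strongest 10% of promoter windows, those of Col1a2 (a chain of type I collagen) and Prkra (a protein activator of the kinase PKR) were near the low end of change after irradiation. Marcksl1 (a MARCKS-related actin-binding protein) and Ptgs2 (cyclooxygenase-2) were at the high end. The 250 bases before each RefSeq start (GRCm38.p6, not the build of the count tables) are shown as the extremes of promoter DNA behind the values below. Capitals mark matches on either strand to a CCAAT box (CCAAT) or a GC box (GGGCGG). The letters of a TATA box, an AP-1 site, a cAMP response element and an ETS site were also searched and not found in these 4 windows. The Col1a2 sequence is chr6:4505368-4505617 (plus strand), Prkra is chr2:76648028-76648277 (minus strand), Marcksl1 is chr4:129513331-129513580 (plus strand) and Ptgs2 is chr1:150099781-150100030 (plus strand).
Col1a2: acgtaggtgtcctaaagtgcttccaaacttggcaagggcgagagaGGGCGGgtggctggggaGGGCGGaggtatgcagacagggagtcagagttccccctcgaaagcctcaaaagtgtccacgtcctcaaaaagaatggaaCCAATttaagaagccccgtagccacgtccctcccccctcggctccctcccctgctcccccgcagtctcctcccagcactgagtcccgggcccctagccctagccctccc
Prkra: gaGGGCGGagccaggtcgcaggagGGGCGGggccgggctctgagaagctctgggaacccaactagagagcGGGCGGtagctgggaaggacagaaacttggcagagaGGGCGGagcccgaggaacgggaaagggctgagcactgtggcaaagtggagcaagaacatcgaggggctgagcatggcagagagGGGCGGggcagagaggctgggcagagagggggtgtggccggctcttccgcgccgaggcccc
Marcksl1: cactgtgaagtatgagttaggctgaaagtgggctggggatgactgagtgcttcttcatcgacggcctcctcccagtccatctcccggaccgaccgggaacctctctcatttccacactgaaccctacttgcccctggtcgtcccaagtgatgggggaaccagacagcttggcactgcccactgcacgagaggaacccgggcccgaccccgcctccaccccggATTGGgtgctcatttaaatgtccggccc
Ptgs2: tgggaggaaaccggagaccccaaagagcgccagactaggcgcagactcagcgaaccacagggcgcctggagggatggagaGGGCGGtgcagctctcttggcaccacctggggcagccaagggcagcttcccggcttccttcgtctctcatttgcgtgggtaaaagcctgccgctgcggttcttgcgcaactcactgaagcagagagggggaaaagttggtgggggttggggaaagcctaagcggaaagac
The Col1a2 window had 154 untreated, 39 irradiated and 36 input reads. Prkra had 189, 51 and 34 reads in the same order. Marcksl1 had 93, 159 and 33 reads, and Ptgs2 had 128, 145 and 32. Scaled by pool depth, the irradiated over untreated ratio was 0.315 at Col1a2 (95% exact binomial interval 0.216 to 0.451, counting error only, here and below) and 0.336 at Prkra (0.242 to 0.460). It was 2.13 at Marcksl1 (1.64 to 2.78) and 1.41 at Ptgs2 (1.10 to 1.80). These windows were chosen for their ratios, so the intervals describe counting error and test nothing. GC boxes matched in Col1a2, Prkra and Ptgs2, and a CCAAT box in Col1a2 and Marcksl1, so low and high windows shared both motifs.

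Irradiated cells had fewer depth-scaled FAIRE reads at most tested promoter windows and at most tested peaks. The median log2 change, irradiated over untreated reads after depth scaling, was −0.30 over the 17786 promoter windows with at least 20 reads in both pools together, with the middle 50% of windows between −0.59 and 0.04. Over 45498 such peaks it was −0.38, with the middle 50% between −0.81 and 0.05. Signal was lower after UV at 72.6% of these promoter windows and at 72.9% of these peaks. The depth ratio of the irradiated to the untreated pool, 0.803, was read from the input scales in the deposited promoter table. The promoter windows summed to 1032412 untreated, 637080 irradiated and 572576 input reads. The direction depends on this scaling. When the pools were equated on their promoter reads, which shifts every value by 0.38, the median was 0.07 at promoters and −0.01 at peaks. This scaling makes the summed promoter reads equal, so it cannot show whether promoters lost signal. Values under it are changes relative to promoters as a whole. When they were equated on the windows of olfactory receptor genes, which fibroblasts do not use, it was −0.43 and −0.51.

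At least 2-fold lower signal was seen at 943 promoter windows (5.3% of those tested) and at 8005 peaks (17.6%). At least 2-fold higher signal was seen at 256 windows (1.44%) and 1209 peaks (2.66%). The median peak was 254 bp wide and had 22 untreated reads, against 24 in the median promoter window. Peaks also scattered more at like read numbers: between 80 and 160 mean reads, 15.2% of peaks and 4.39% of promoter windows were at least 2-fold lower. Among the strongest 10% of peaks, the 95% interval of 14.4% lay below and of 14.6% above the pooled ratio of that class. Among the strongest 10% of promoter windows 7.08% lay below and 7.68% above. These intervals cover counting error only, so the spread between samples is not in them and was not tested. The peaks come from a merged list of this same assay, so a peak may have entered through either pool alone. Promoter windows were set by gene.

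**Figure D1:**
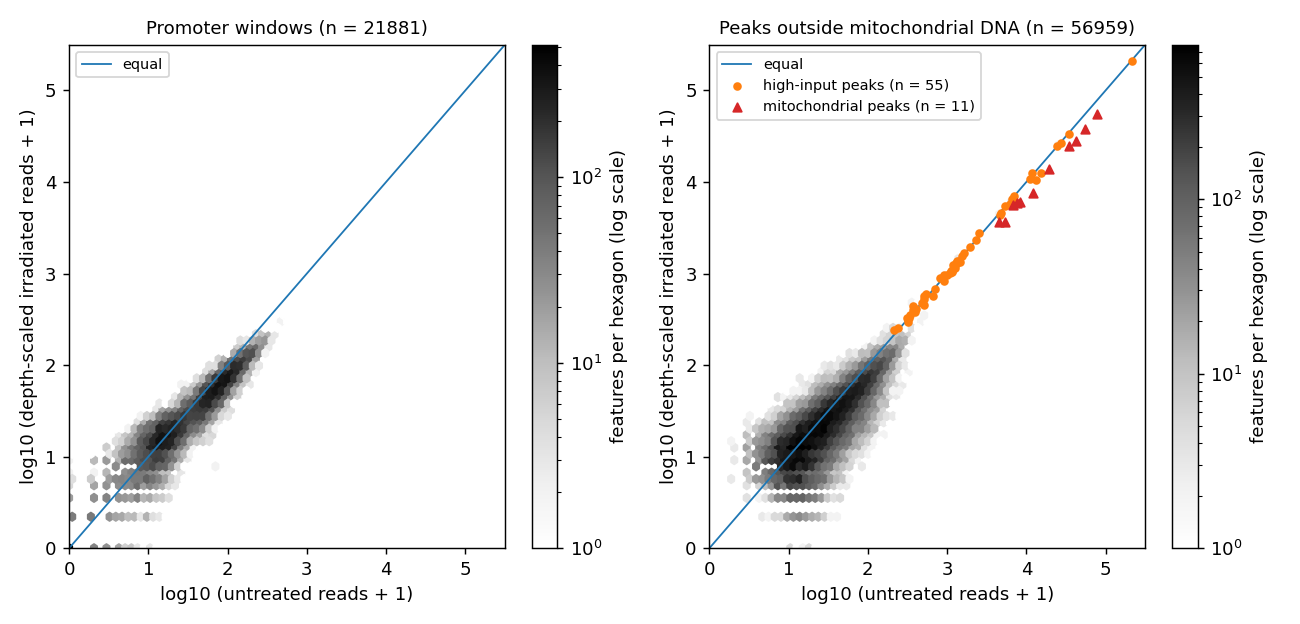
Depth-scaled irradiated reads against untreated reads (both log10 of reads + 1) for promoter windows (left) and peaks (right), shaded by the number of features per hexagon. Most features lie below the line of equality, and the 11 mitochondrial peaks lie below it. The 55 peaks with at least 500 input reads lie around it, with log2 changes from −0.39 to 0.23.

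The median change in reads was lowest in the strongest features, with strength defined as the mean depth-scaled reads of both pools and cut into 4 equal classes. In promoter windows the median log2 change was −0.06 in the weakest class, −0.00 in the second, −0.35 in the third and −0.46 in the strongest. In peaks it was −0.35, −0.25, −0.35 and −0.50 in the same order. The weakest classes are thinned by the minimum of 20 reads, which 1376 of 5471 windows and 2779 of 14240 peaks met. At like read numbers the promoter median stayed above the peak median, and the gap was smallest at 160 or more reads. Between 80 and 160 mean reads the median was −0.47 over 3005 promoter windows and −0.54 over 3337 peaks, and at 160 or more it was −0.55 over 415 windows and −0.57 over 371 peaks. Between 40 and 80 reads the median was −0.40 at promoter windows and −0.49 at peaks, and between 20 and 40 reads it was −0.23 and −0.37. Classes cut on untreated reads alone gave a strongest minus weakest difference of −1.04 at promoters and −1.14 at peaks, against −0.41 and −0.15.

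**Figure D2:**
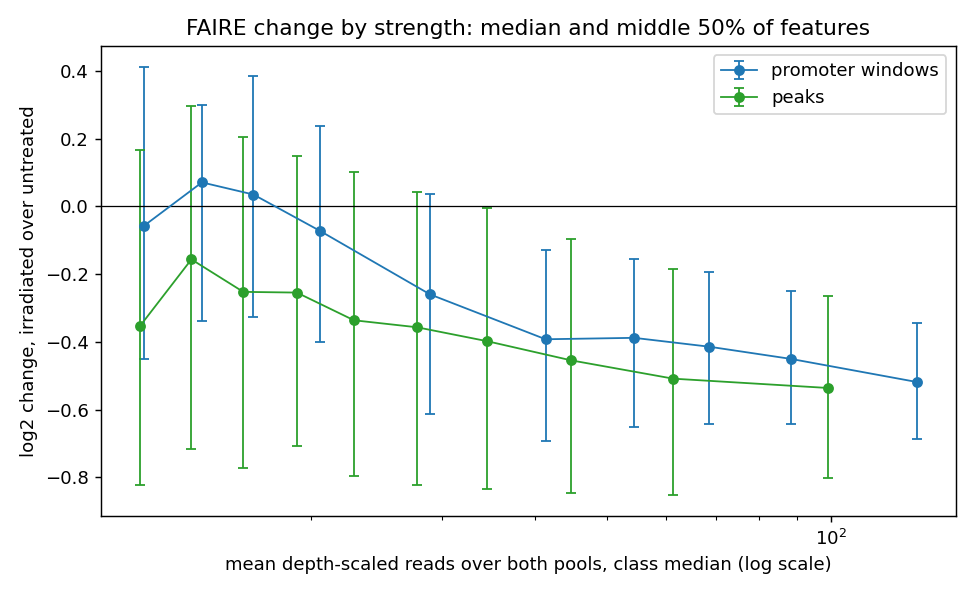
Median log2 change (irradiated over untreated) in 10 equal classes of mean depth-scaled reads (log axis) for promoter windows and peaks, with bars over the middle 50% of features. The medians go from near 0 in weak promoter windows to about −0.5 in the strongest class of both kinds.

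A 1000 bp window holds flanking DNA that is not open, so the reads in excess of scaled input were also compared. Summed over all promoter windows, the irradiated pool kept 0.636 of the untreated excess (0.632 to 0.640). Summed over peaks it kept 0.703 (0.701 to 0.705), and 0.672 (0.670 to 0.674) without the 55 peaks that had at least 500 input reads. On this scale promoters therefore kept less than peaks, the opposite order to the medians of reads. Among features enriched 4 to 6 times over input, the kept share was 0.658 at promoter windows and 0.663 at peaks. At 6 to 8 times it was 0.649 and 0.662, and at 8 times or more 0.641 and 0.664. At 2 to 3 times it was 0.635 (0.627 to 0.644) at promoter windows and 0.700 (0.694 to 0.707) at peaks, and at 3 to 4 times 0.658 and 0.684. At 1 to 1.5 times the order was the other way, 0.691 (0.646 to 0.736) at promoter windows and 0.640 (0.591 to 0.689) at peaks, with overlapping intervals. By strength, the share kept by promoter windows was not lowest in the strongest class: it was 0.619 (0.611 to 0.626) in the third class and 0.653 (0.650 to 0.657) in the strongest. In peaks without high input it was 0.695 and 0.638. Windows without excess signal did not show a loss. Over the 1126 olfactory receptor windows the reads were 0.993 of scaled input before and 1.09 after irradiation.

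**Figure D3:**
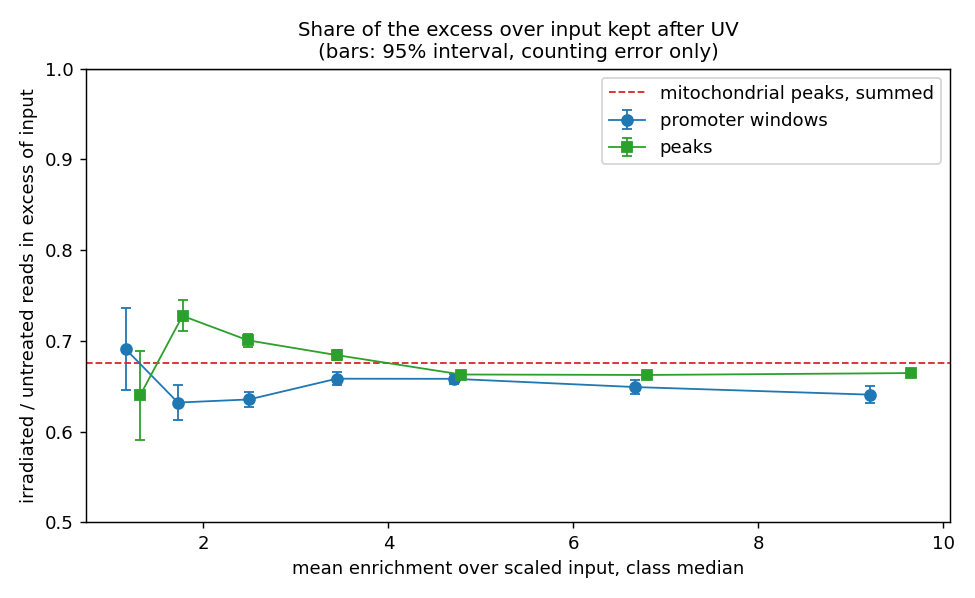
Ratio of irradiated to untreated reads in excess of scaled input, by class of mean enrichment over input, with 95% intervals for counting error and a dashed line for the mitochondrial peaks at 0.676. From 4 times enrichment upward promoter windows and peaks all lie between 0.641 and 0.664.

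Wide peaks lost more than narrow ones. The narrowest class (155 to 195 bp) had a median log2 change of −0.25 and the next (196 to 254 bp) −0.29. Peaks of 255 to 351 bp stood at −0.36 and those of 352 to 2002 bp at −0.50. The kept share of the excess, without high-input peaks, was 0.817 (0.807 to 0.828) in the narrowest and 0.631 (0.629 to 0.634) in the widest class. Width and strength go together: 10973 of the 14275 narrowest peaks were also in the weakest class, and 11105 of the widest were in the strongest. Within the third strength class the kept share was still 0.831 (0.764 to 0.898) in 154 peaks of the narrowest class, 0.759 and 0.681 in the middle classes and 0.664 (0.653 to 0.674) in the widest. Within the narrowest class it was 0.813, 0.820 and 0.831 over the first 3 strength classes, which differ by less than their intervals. In the second strength class the widest 171 peaks kept 0.942 (0.849 to 1.03), so there the order by width did not hold. Nor did it in the weakest class, with 0.813, 0.767 and 0.895 from the narrowest to the third width class.

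**Figure D4:**
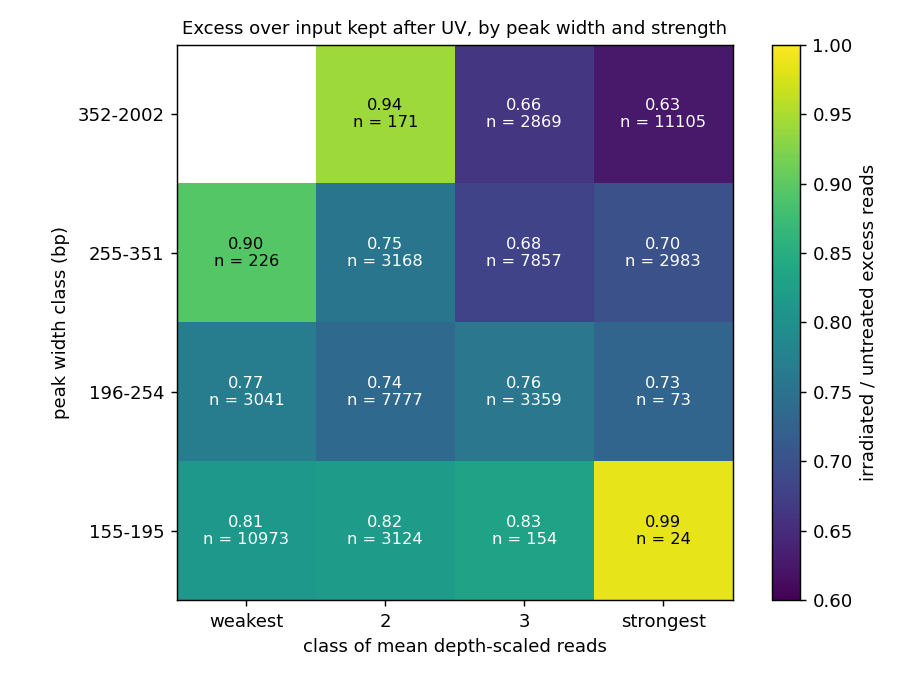
Ratio of irradiated to untreated excess reads for peaks in 4 classes of width (rows, in bp) and 4 of mean depth-scaled reads (columns), without peaks of at least 500 input reads, with the number of peaks in each cell. Cells with under 20 tested peaks are blank, and the ratio goes from 0.81 at the narrow, weak corner to 0.63 at the wide, strong corner.

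Single peaks at the ends of the range, among the strongest 10% of peaks and in mm9 coordinates, all overlapped a peak of H3K27ac, as did 13602 of the 14185 peaks in the strongest class without high input. The lowest was chr10:43726555-43727003 with 140 untreated, 11 irradiated and 18 input reads, a depth-scaled ratio of 0.0979 (0.0478 to 0.181). At chr2:131532142-131532903 the reads were 214, 18 and 28 (ratio 0.105, 0.0609 to 0.170), and at chr8:81746004-81746609 they were 122, 10 and 18 (ratio 0.102, 0.0478 to 0.194). Irradiated reads at these 3 peaks were close to scaled input. The highest were chr16:31290904-31291584 with 34, 99 and 27 reads (ratio 3.63, 2.43 to 5.52), chr6:140569134-140569768 with 60, 158 and 35 (ratio 3.28, 2.42 to 4.49) and chr19:59955057-59955825 with 32, 82 and 38 (ratio 3.19, 2.10 to 4.96). No annotation of mm9 was used here, so genes at these peaks are not given. Peaks that overlapped an H3K27ac peak kept 0.649 of their excess (37913 peaks, median log2 change −0.44). Those that overlapped none kept 0.822 (18991 peaks, median −0.17). In the second strength class the shares were 0.697 and 0.849, and in the strongest 0.637 and 0.678.

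Mitochondrial peaks lost about as large a share as nuclear ones. All 11 were lower, with log2 changes from −0.67 to −0.29 and a median of −0.51, on 4488 to 78720 untreated reads. Together they kept 0.676 (0.671 to 0.680) of their excess, against 0.672 for nuclear peaks without high input. The amount of mitochondrial DNA per cell and its recovery cannot be told apart here. The 55 nuclear peaks with at least 500 input reads, where the deposited counts are high in every pool, had a median log2 change of −0.04. Their changes ran from −0.39 to 0.23. The strongest, chr2:98506349-98507559, had 212859 untreated, 167165 irradiated and 171609 input reads, a ratio of 0.978 (0.972 to 0.984). Also among the 55, peaks at chr17:39980060-39981845, chr17:39981939-39983603 and chr17:39984871-39985759 were enriched 5.42, 4.95 and 5.39 times over input. Their ratios were 0.821, 0.798 and 0.761, and they kept 0.785, 0.753 and 0.715 of their excess. The widest peak, chrY:2780700-2782700, had 900, 769 and 1475 reads (ratio 1.06, 0.965 to 1.17). Below 500 input reads the strongest was chr11:108872871-108873451, with 1547, 954 and 445 reads (ratio 0.768, 0.708 to 0.833). On the 19 autosomes, without high-input peaks, the median log2 change ran from −0.48 on chromosome 14 to −0.33 on chromosome 10, and the kept share from 0.640 to 0.700. On chromosome X the median was −0.50. The 50 peaks on chromosome Y stood at 0.08, with reads at 0.974 of scaled input in untreated and 1.03 in irradiated cells.

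Promoters of the p53 target list and of the immediate early and AP-1 list kept the largest shares of their excess among the 8 lists with excess over input. The excision repair list kept 0.707 (0.645 to 0.768). Of 32 immediate early and AP-1 genes, 31 windows were tested, 23 lay above the median of all windows and 12 were above 0. None was past 2-fold in either direction, against 5.3% lower and 1.44% higher over all windows, and the list's median was −0.08 against −0.30. The list kept 0.925 (0.863 to 0.986) of its excess, against 0.636 over all windows. The Fos window had 82 untreated, 69 irradiated and 33 input reads, a ratio of 1.05 (0.750 to 1.46), while its RNA rose from 6.01, 6.92 and 7.31 CPM in the untreated libraries to 138, 120 and 155 CPM in the irradiated ones. On the log2 scale its RNA rose by 4.35 ± 0.21 (SE back-calculated from the test's F statistic, here and below). The adjusted p was 1.17e-09 in edgeR's quasi-likelihood test. Jun, another AP-1 gene and the strongest window of the list, had a ratio of 0.832 (0.673 to 1.03). Dusp6, a phosphatase of the kinase ERK, was at 0.773 (0.611 to 0.975). Srf, the serum response factor, was at 0.634. RNA of 22 of the 31 genes tested rose and of 2 fell, where 7.7% of all genes were called higher and 12.4% lower. Scaled by promoter reads, the median of this list was 0.30 and that of p53 targets 0.29.

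Targets of p53 spread widely, from −1.13 to 1.93 on the log2 scale. Of 29 tested windows 18 lay above the median of all windows and 13 were above 0. In this list 2 windows (6.90%) were at least 2-fold lower and 2 (6.90%) at least 2-fold higher, against 5.3% and 1.44% of all tested windows. The median was −0.08 and the kept share of the excess 0.990 (0.908 to 1.07). At the window of Cdkn1a, which encodes the cell cycle inhibitor p21, there were 26 untreated, 82 irradiated and 36 input reads. The depth-scaled ratio was 3.93 (2.50 to 6.36), from about the level of scaled input, and H3K27ac reads went from 245 to 810. Its RNA was at 29.9, 19.9 and 18.4 CPM in untreated and 180, 55.4 and 91.9 CPM in irradiated libraries (log2 fold change 2.26 ± 0.32, adjusted p = 6.96e-05 in edgeR), with no overlap between the groups. Ratios were 1.32 (1.04 to 1.68) at the antiproliferative gene Btg2, which is also in the immediate early list, and 1.29 (0.997 to 1.66) at the cyclin gene Ccng1. They were 0.925 (0.705 to 1.21) at the lesion sensor gene Xpc and 0.612 at the sestrin gene Sesn1, whose RNA fell. RNA of 9 of 27 tested genes was called higher and of 3 lower, against 7.7% and 12.4% of all genes. Of 29 nucleotide excision repair and related windows 13 lay above and 16 below the median of all windows, with a list median of −0.38. Rad23b, which partners Xpc, was at 0.656, Ddb1 at 0.733, Rpa3 at 0.718 and Xrcc1 at 0.771.

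Histone and matrix genes lay at the low end. Of 67 replication-dependent histone windows 57 were tested and 49 lay below the median of all windows, at a list median of −0.73. At least 2-fold lower were 16 (28.1%), against 5.3% of all tested windows. The list kept 0.493 (0.451 to 0.535) of its excess. RNA of 49 of the 53 histone genes tested fell and of 1 rose, against 12.4% and 7.7% of all genes. The 4 strongest windows were all less than 2-fold lower: Hist4h4 had a ratio of 0.667, Hist2h2bb 0.600, Hist2h4 0.965 and Hist1h4a 0.845. Histone genes stand in clusters of near-identical copies, so reads of single windows are uncertain. Of 34 tested matrix windows 26 lay below the median of all windows, at a list median of −0.59 and a kept share of 0.524 (0.471 to 0.577). Of these 34 windows 8 (23.5%) were at least 2-fold lower, against the same 5.3%. The crosslinking enzyme gene Lox had 164 untreated and 52 irradiated reads (ratio 0.395, 0.283 to 0.543), the thrombospondin gene Thbs2 was at 0.470, Thbs1 at 0.781 and the fibronectin gene Fn1 at 0.672. RNA of 4 of the 36 matrix genes tested rose and of none fell at an adjusted p under 0.05 in edgeR, against 7.7% and 12.4% of all genes.

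The other lists lay near the strongest class of promoters, whose median was −0.46. Ribosomal protein windows had a median of −0.48 over 81 tested and kept 0.630 (0.600 to 0.660). RNA of 73 of the 77 ribosomal protein genes tested rose and of none fell, against 7.7% and 12.4% of all genes. Rps19 had 268 untreated and 111 irradiated reads (ratio 0.516), Rpl13a was at 0.520, Rpl37 at 0.691 and Rps21 at 0.799. Mitosis genes had a median of −0.53, with all 30 windows below 0, and kept 0.639. Of the strongest class of promoter windows 93.3% were below 0, and of all tested windows 72.6%. Incenp was at 0.750, Ndc80 at 0.751, Mad2l1 at 0.623 and Cdc20 at 0.591. Actin and SRF target genes had a median of −0.56. Within that list the focal adhesion genes Actn1 and Zyx were at 0.968 and 0.840 and the intermediate filament gene Vim at 0.525. The cytoskeletal actin gene Actb was at 0.623 and the glycolytic gene Gapdh at 0.453 (0.318 to 0.635).

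**Figure D5:**
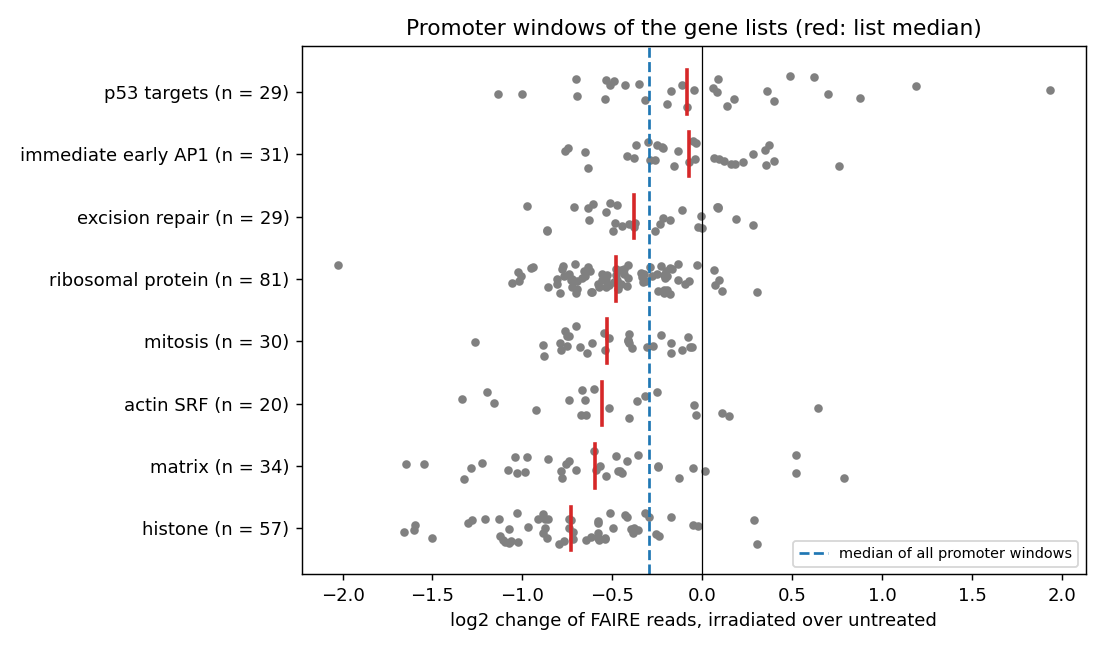
Log2 change of FAIRE reads at each tested promoter window (points) of 8 gene lists, with the list median in red and the median of all promoter windows, −0.30, as a dashed line. The medians of the p53 and immediate early lists lie to the right of the dashed line, and the medians of the matrix and histone lists lie farthest to the left.

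At the ends of the strongest 10% of promoter windows, the other low windows were Setd8 (a histone H4 lysine 20 methyltransferase) with 178 untreated and 44 irradiated reads, Emilin1 (an elastic fibre protein) with 154 and 41, and Kif6 (a kinesin) with 189 and 52. Their ratios were 0.308, 0.332 and 0.343. The other high windows were Ereg (an EGF receptor ligand) at 1.56, Rin1 (a Ras effector) at 1.51 and 7530420F21Rik at 1.45. RefSeq places the starts of 7530420F21Rik and Ptgs2 on opposite strands with overlapping promoters, so those windows may share reads. H3K27ac reads were lower after UV in all 5 low windows and higher in all 5 high ones. At Emilin1 they were 812 and 336 and at Marcksl1 262 and 844. Marcksl1 RNA was at 123, 122 and 104 CPM in untreated and 462, 292 and 373 CPM in irradiated libraries (log2 fold change 1.69 ± 0.22, adjusted p = 3.02e-05 in edgeR). Ptgs2 RNA rose by 1.85 ± 0.41 on the log2 scale (adjusted p = 0.00312 in edgeR). At the other high windows, RNA of Ereg (log2 fold change −0.07 ± 0.30) and Rin1 (0.64 ± 0.24) was not called, and 7530420F21Rik was not tested. RNA of Col1a2 was not called (log2 fold change −0.08 ± 0.23, adjusted p = 0.942 in edgeR), nor was that of Emilin1, Prkra and Kif6. Setd8 RNA was called lower (log2 fold change −0.54 ± 0.18, adjusted p = 0.0414 in edgeR).

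Across genes, the FAIRE change at promoters bore little relation to the RNA change. RNA was compared with edgeR over 3 untreated and 3 irradiated libraries of 14211528 to 22032701 counts, and 1149 of 14925 genes were higher and 1854 lower at an adjusted p under 0.05. Leaving out irradiated library 3 gave 585 higher and 1139 lower, irradiated library 1 gave 2849 lower, untreated library 1 gave 1796 higher, and untreated library 2 gave 1941 higher and 1168 lower. The labels do not say whether these libraries came from separate cultures, so the p-values may measure technical spread only. Among the upper 50% of windows by strength the median FAIRE change was −0.43 at 1010 genes with higher RNA, −0.45 at 1715 with lower RNA and −0.42 at 6957 not called. The Pearson correlation with the RNA log2 fold change over 9580 genes was 0.07. Genes whose RNA rose at least 2-fold kept 0.732 (0.708 to 0.756) of their FAIRE excess, and those whose RNA was at least 2-fold lower kept 0.614 (0.602 to 0.626). The acetylation change was closer to the FAIRE change, with a correlation of 0.32 over 10764 windows, whose counts come from separate libraries and share only the windows. The 555 of these windows with at least 2-fold more H3K27ac kept 0.878 (0.860 to 0.896) of their FAIRE excess. The 866 with at least 2-fold less kept 0.448 (0.435 to 0.461), and the other 9343 kept 0.645 (0.641 to 0.648).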

How the data were processed

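Read counts per promoter window and per peak were deposited by the authors for pooled samples and input, and RNA counts per gene for each library. The submitters' processing notes name build mm9 and the tools MACS2, TopHat, DESeq2 and Bowtie 0.12.9; what each did is not given in the sources used here, nor are settings. The deposited log2 enrichment adds 16 to the reads, divides by input reads times a scale plus 16, and takes the log2. The scale was 0.657 for untreated and 0.528 for irradiated reads at promoters, and 0.657 for both at peaks, so changes here used the promoter scales and counts, with 1 read added, a minimum of 20 reads over both pools and a 2-fold limit. The deposited peak score only ranked peaks for 1 alternative. In the tables used, 6 columns of values matching no labelled sample were left out.

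Excess is reads minus scaled input. Its intervals are 95% delta-method intervals, and single features have exact Clopper-Pearson intervals. All cover counting error only, and reads without molecular identifiers are not independent molecules. RNA was fitted in R 4.3.3 with edgeR 4.0.16 (filterByExpr, TMM, quasi-likelihood test, Benjamini-Hochberg), with DESeq2 1.42.0 as an alternative; FAIRE values came from Python 3.11.15 (scipy 1.17.1, pandas 2.3.3, numpy 2.4.6) and bedtools 2.31.1 (overlap of at least 1 bp). CPM values in the text use TMM-scaled library sizes, except marker sums and the values of Lum, Postn and S100a4, which use library totals. Figures used matplotlib 3.10.9. Both steps were tested on simulated data. Features, gene lists, naming rules and tests were chosen with earlier results of these data known. Named were the 4 strongest promoters per list, the 5 lowest and 5 highest of the strongest 10% of windows, the 3 lowest and 3 highest of the strongest 10% of peaks of at least 200 bp, the widest and the strongest peak, and Fos, Cdkn1a, Actb and Gapdh. Peaks at promoters could not be told from other peaks, because the promoter table gives no coordinates; overlap with H3K27ac peaks was described instead. Of 21881 windows, 75.4% matched a promoter of the RefSeq table (GRCm38.p6) by symbol or older symbol.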

Additional observations from a re-analysis of the deposited data

How the results depend on the processing

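Each pool is 1 column, so no FAIRE value has a replicate check. Depth scaling decided direction: scaled by promoter reads the median log2 change was 0.0677 at promoters, −0.0136 at peaks and −0.13 at mitochondrial peaks, and scaled by olfactory receptor windows (added after seeing the data) −0.43 at promoters and −0.51 at peaks. Promoter-read scaling equates the pools at promoters by construction, so its values are relative to promoters as a whole. With promoter-read scaling, 2 list medians turned above 0 (immediate early 0.30, p53 0.29), as did Jun 0.11, Dusp6 0.0080, Xpc 0.27, Xrcc1 0.0053, Thbs1 0.0223, Zyx 0.13, Actn1 0.33, Rps21 0.0562, Hist2h4 0.33, Hist1h4a 0.13, Olfr1457 0.11, Olfr455 0.35 and the strongest peak 0.35. With 16 reads added, no low-count filter, the deposited enrichment and the upper 50% by strength, promoters stood at −0.21, −0.25, −0.25 and −0.42 and peaks at −0.24, −0.34, −0.42 and −0.44. Summed excess was −0.65 at promoters, −0.51 at peaks and −0.57 at peaks without high input (added after seeing the data). Promoters minus peaks, 0.08, was 0.0338 with 16 reads added, 0.17 with the deposited enrichment and 0.0161 in the upper 50%, and turned to −0.14 for summed excess and −0.0822 without high-input peaks; the cause was not tested. Widest minus narrowest peaks, −0.26, was −0.29, −0.36, −0.39 and −0.23 with 16 reads, no filter, deposited enrichment and the upper 50%. Strongest minus weakest peaks, −0.15, was −0.24, −0.36 and −0.37 under the first 3 of these, −1.14 by untreated reads and −0.20 by deposited score. For promoters, −0.41, it was −0.48 with deposited enrichment and −1.04 by untreated reads. The values by untreated reads are widened in advance, because those reads also enter the change. Mitochondrial peaks stood at −0.82 with the deposited enrichment. At peaks that enrichment used the same input scale for both pools, while at promoters the scales differed. Its peak medians, and its peak counts given below, therefore lack depth scaling. Its promoter minus peak value of 0.17 sets depth-scaled promoters against peaks that are not.

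Counts past 2-fold moved most. Promoters lower numbered 161 with 16 reads added, 180 scaled by promoter reads, 229 with the deposited enrichment, 1532 by olfactory scaling and 4531 at 1.5-fold. Promoters higher numbered 2, 898, 1, 156 and 1065 in the same order, and 630 with no filter. Peaks lower numbered 2368, 3969, 4218 and 16904 with 16 reads, promoter scaling, deposited enrichment and 1.5-fold. Peaks higher numbered 127, 3072, 30 and 3500 likewise, and 2147 with no filter. Leaving out 1 RNA library gave 585 to 1941 genes higher and 1139 to 2849 lower. Promoters of genes with higher RNA minus all other tested genes, −0.06, went to 0.0102 with DESeq2 and ran from −0.0909 to −0.0225 leaving out 1 library; with lower RNA, −0.10, it was −0.16 with no filter, −0.0553 with DESeq2 and −0.127 to −0.0936 leaving out 1 library. Replicate numbers did not pair the RNA libraries (correlations of deviations 0.15, −0.58 and 0.50; of 3 irradiated libraries, 1 correlated best with its own number), and a replicate block gave 1276 higher and 2067 lower. The planned comparison of promoter peaks with other peaks was not run, because the promoter table used lists no coordinates.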

Other observations

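Sequence features of the strongest 25% of promoter windows went with small differences in the loss. Of these 5470 windows, 4502 (82.3%) matched a RefSeq promoter, and motifs were counted on both strands in the 250 bases before the start. Windows with a CCAAT box (CCAAT, bound by NF-Y) kept 0.635 of their FAIRE excess (0.629 to 0.640, 2163 windows) and those without kept 0.675 (0.669 to 0.681, 2339 windows). Those with the box were also stronger, with a median of 96.6 mean reads against 84.8. That motif stood in 48.0% of the set and in 33.9% of all promoters in the RefSeq table. Windows with a cAMP response element (TGACGTCA) kept 0.703 (0.682 to 0.723, 179 windows) against 0.652 without it, and the motif stood in 3.98% of the set and 1.55% of all promoters. Windows with an ETS site (CCGGAAG, in 20.3% of the set and 6.91% of all promoters) kept 0.673 against 0.649. An AP-1 site (TGANTCA, 4.86% and 6.75%) went with 0.677 (0.659 to 0.695) against 0.652 (0.648 to 0.656). The median log2 change per window was close, −0.45 with the site and −0.46 without. A GC box (GGGCGG, 68.6% and 32.7%) went with 0.651 against 0.659, and a TATA box (TATAAA) with 0.651 against 0.654. Across 4 classes of GC content the kept share ran only from 0.651 to 0.656, and across 4 classes of AA and TT content from 0.647 to 0.663. These intervals cover counting error only, the motif classes were compared without a test, and motifs share windows.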
